A study of Cucumis sativus with 33 samples.

Results

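A set of 186 genes that were high for a short time in the cucumber corolla is described here, out of 23248 genes measured. Each member had its highest level on day 3 of the normal course, when the bud turns from green to yellow. A gene was taken when its mean in N3 was at least 5 RPM (reads scaled to the size of the library), at least 1.5 times the mean in N1, and at least 2 times the means in N4 and in N5. The members were thus chosen by the RPM values of the normal libraries, which are given as a description with no test. The 21 libraries of the super course were not used to choose it, and every comparison tested below is between super groups. The spread of each gene was estimated over all libraries, the normal ones included.

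The petals of a flower together form the corolla, and anthesis is the moment at which it opens. In a cucumber bud the petals start out small and green. As they mature they lose chlorophyll, gather yellow carotenoids and expand, and the flower then opens.

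All corollas came from female flowers of the inbred line 6457 of Cucumis sativus, bagged to keep pollen out. Super ovaries grew on plants with ample fertilizer and water that kept a single fruit close to the growing tip, and they were sampled on days 1, 3, 4, 5, 7, 8 and 9 after labeling (S1 to S9). Normal ovaries grew on plants short of fertilizer and water that had set fruit elsewhere, and they were sampled on days 1, 3, 4 and 5 (N1 to N5). Fertilizer, water and fruit load differed together, so their parts cannot be told apart. By the submitters' description S1 was a green bud, S3, S4 and S5 were green yellow buds, S7 and S8 were yellow buds and S9 was in flower. In normal ovaries N1 was a green bud, N3 a green yellow bud, N4 a yellow bud and N5 in flower. There were 3 libraries in each of these 11 groups, made from pools of 5 corollas.

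The libraries held 16858601 to 24643266 reads by the steps of their values. Some replicates stood apart. Among the members, log2 values of S7 replicate 3 correlated at 0.899 and 0.926 with the other S7 libraries, and those of S5 replicate 3 at 0.895 and 0.915 with the other S5 libraries. S1 replicate 3 reached 0.950 and 0.955, and every other replicate pair reached 0.965 or above. Over all genes tested S7 replicate 3 also stood apart, at 0.965 and 0.977, while S5 replicate 3 reached 0.993 with each of its group. Results that rest on these libraries are given with and without them where the difference is large. The identifiers do not join to gene names, so neither the function of a member nor the labelled tissue could be checked against known genes. In bulk corollas, fewer cells of a type and less RNA per cell cannot be told apart. RPM is a share of the library, so a member also moves when other genes take more or less of it.

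In the normal course the members made up 0.946% to 1.18% of the library in N1, 2.26% to 2.62% in N3, 0.720% to 0.763% in N4 and 0.487% to 0.496% in N5. The member levels in N3 had a median of 37.3 RPM, with quartiles of 14.7 and 112 RPM. There were 51 members at 100 RPM or more in N3 and 3 at 1000 RPM or more. The median member had an N3 level 2.24 times that of N1, 4.32 times that of N4 and 4.13 times that of N5. The rise was often small, with 111 members at 2 times N1 or more and 30 at 4 times or more. The fall was larger, with 102 members at 4 times or more over N4 and 94 at 4 times or more over N5. For 180 members every N3 library lay above every other normal library, and for 6 they overlapped. All of these values follow from the choice of the members.

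Many members sat close to the limits that chose them. The lowest N3 mean in the set was 5.27 RPM, and the nearest gene kept out by that limit alone had 4.96 RPM. The smallest ratio of N3 to N1 in the set was 1.5 and the nearest outside was 1.49, with 31 members within 10% above the limit and 32 genes within 10% below it. The smallest ratio of N3 to N4 was 2.022 against 1.999 just outside, and that of N3 to N5 was 2.005 against 1.997 just outside. When libraries were rescaled by the median of their gene ratios, 158 genes met the rule, of which 126 were among the 186. The group medians in place of the means gave 189 genes, 172 of them shared.

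The super course did not show a single time for this set. In it, 77 of the 186 members (41.4%) had their highest group mean in one of the green yellow buds, S3, S4 or S5. Another 49 (26.3%) had it in S7, on day 7, which the submitters call a yellow bud. The green bud S1 held the highest mean of 39 members (21%), S9 that of 17 (9.14%) and S8 that of 4 (2.15%). Among all 18905 genes tested, which are the genes that reached a group mean of 1 RPM anywhere, the shares were 26.5% for S3 to S5, 8.26% for S7, 32.5% for S1, 20.7% for S9 and 12.1% for S8. Members thus peaked in S3 to S5 and in S7 at a larger share than genes at large, and in S1, S8 and S9 at a smaller share. The days from S3 to S5 were not alike. On day 3, S3 held the maximum of 14 members (7.5%), near the 5.9% of genes tested. S4 held that of 28 (15.05%), against 11.3%, and S5 that of 35 (18.8%), against 9.27%. No test of these shares was made, and genes at large include many that did not vary as the rule asks.

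**Figure D1:**
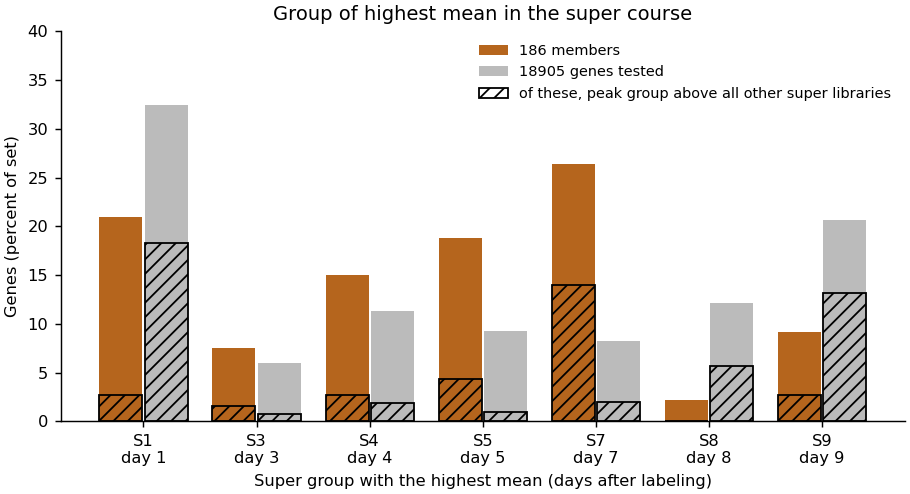
Percent of the 186 members (left bars) and of the 18905 genes tested (right bars) by the super group that held their highest mean, from day 1 to day 9 after labeling. Hatching marks genes whose 3 libraries of the peak group all lay above the other super libraries, and the tallest hatched bar of the members is that of S7, with 26 of 186.

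Of the single days, day 7 gave the most maxima that stood clear of all other super groups. In 26 of the 186 members (14.0%) the highest mean was in S7 and all 3 S7 libraries lay above all other super libraries, against 2.02% of the genes tested. For a maximum in S3, S4 or S5 this held in 16 of the 186 (8.60%), against 3.51%. Each of S3, S4 and S5 had to lie above the other green yellow days too, while S7 shared its stage with S8 alone. A gene high on several green yellow days was thus not counted, so the counts do not show which stage had the sharper maximum. It held for S1 in 5 members (2.69%), against 18.3%, and for S9 in 5 members (2.69%), against 13.2%. Taken only over the genes that peaked in S7, the share that stood clear was 53.1% of the 49 members and 24.5% of the 1561 such genes among those tested. Over those that peaked in S3 to S5 it was 20.8% of the members and 13.3% of the genes tested. Without S7 replicate 3 and S5 replicate 3, 51 members peaked in S7 and 80 in S3 to S5. Peak counts with a library left out are given for members only, without the share of genes tested. The maxima that stood clear were not counted again without these libraries.

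After rescaling, 61 members peaked in S7 (32.8%, against 8.74% of the genes tested), 58 in S3 to S5 (31.2%, against 17.1%), 25 in S1 (13.4%, against 28.1%) and 42 in S8 or S9 (22.6%, against 46.1%). The order of S7 and S3 to S5 was thus turned by the scaling. Members were above genes at large in S7 and in S3 to S5, and below them in S1 and in S8 or S9, under both scalings. Without S1 replicate 3, 13 members in place of 21 peaked in S8 or S9.

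Members that peaked at different super days also differed in shape. Those with a maximum in S3 to S5 stood at a median of 43.7% of their super maximum in S1, 54.2% in S7, 20.4% in S8 and 8.92% in S9. Those with a maximum in S7 stood at 27.1% in S1, 33.2% in S3, 32.1% in S4, 49.9% in S5, 22.6% in S8 and 9.96% in S9. They had been higher over N1 in normal ovaries, with a median N3 level 2.99 times that of N1 against 1.98 times in members that peaked in S3 to S5. The 39 members with a maximum in S1 were flatter, with a median of 52.7% of their maximum in S7 and 41.7% in S9. Their median in the normal course was 89.0 RPM in N3 against 48.0 RPM in N1, the highest N3 median of these classes. The 21 members that peaked in S8 or S9 had medians of 19.2 RPM in N1, 57.0 in N3, 5.21 in N4 and 18.9 in N5.

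**Figure D2:**
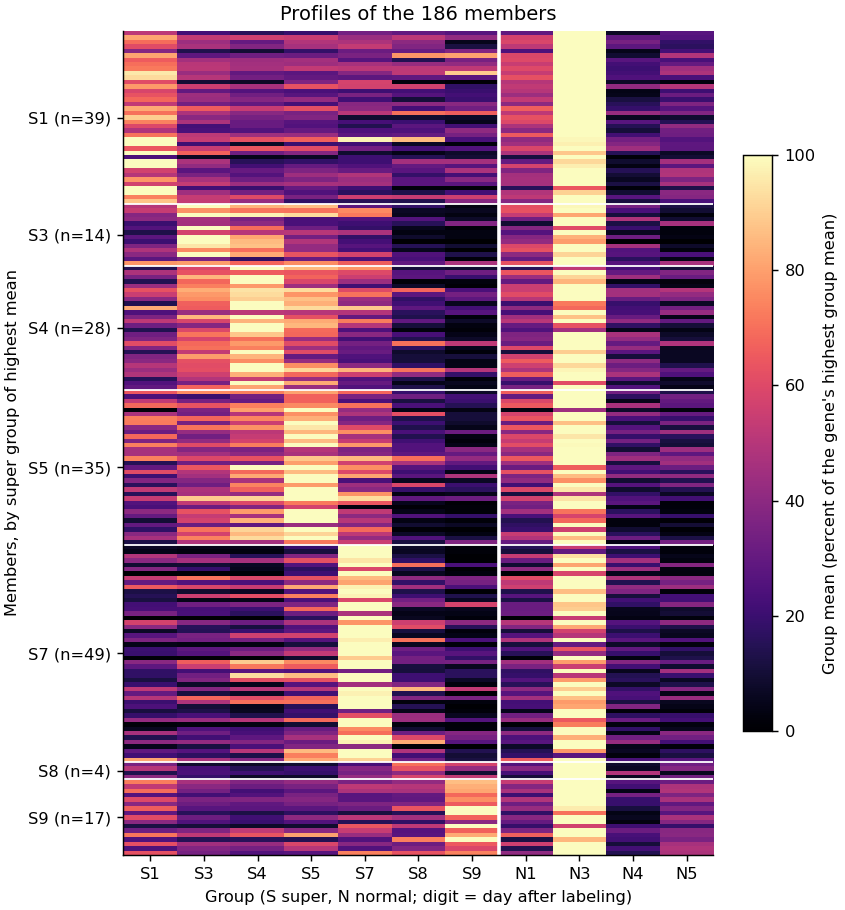
Group means of the 186 members, each as percent of the gene's highest group mean, with super groups left and normal groups right of the white line. Rows are sorted by the super group of highest mean; the N3 column is bright by choice, while the bright super column moves from S1 in 39 members to S7 in 49 and S9 in 17.

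The highest mean reached in any super group was close to that of N3 for many members. The highest super mean was 0.864 times the N3 mean at the median, with quartiles of 0.689 and 1.16 times. It was at least as high as the N3 mean in 72 members and at least 2 times as high in 7. On day 3 itself the super corollas were lower, at a median of 0.470 times the N3 level, and 10 members were higher in S3 than in N3. In S7 the median was 0.509 times the N3 level, and 34 members were higher than in N3. At the median S1 stood at 1.06 times N1, and at flowering S9 stood at 0.843 times N5. These ratios carry no test, because the normal means chose the members and N3 was picked for being high. The highest super mean was in turn picked for each gene from all super groups, whatever their stage, which raises its ratio to N3.

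Summed over the set, the super course had a maximum on day 7. The members added up to 10061 ± 2089 RPM in S1, 9981 ± 836 in S3, 10750 ± 778 in S4, 13489 ± 1989 in S5, 27620 ± 1680 in S7, 6614 ± 314 in S8 and 5349 ± 301 in S9 (SD, n = 3 each). In the normal course the sums were 10409 ± 1247 RPM in N1, 24631 ± 1833 in N3, 7466 ± 231 in N4 and 4900 ± 52.0 in N5. Most of the S7 sum came from a pair of genes. The members with the highest N3 means, Csa2G023940 and Csa2G024440, held 49.0% to 57.3% of it. They held 21.3% to 24.5% of the sum in N3. Without them the sum was 11342 ± 542 RPM in S5, 13092 ± 693 in S7 and 5617 ± 319 in S8, against 18924 ± 1016 RPM in N3.

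**Figure D3:**
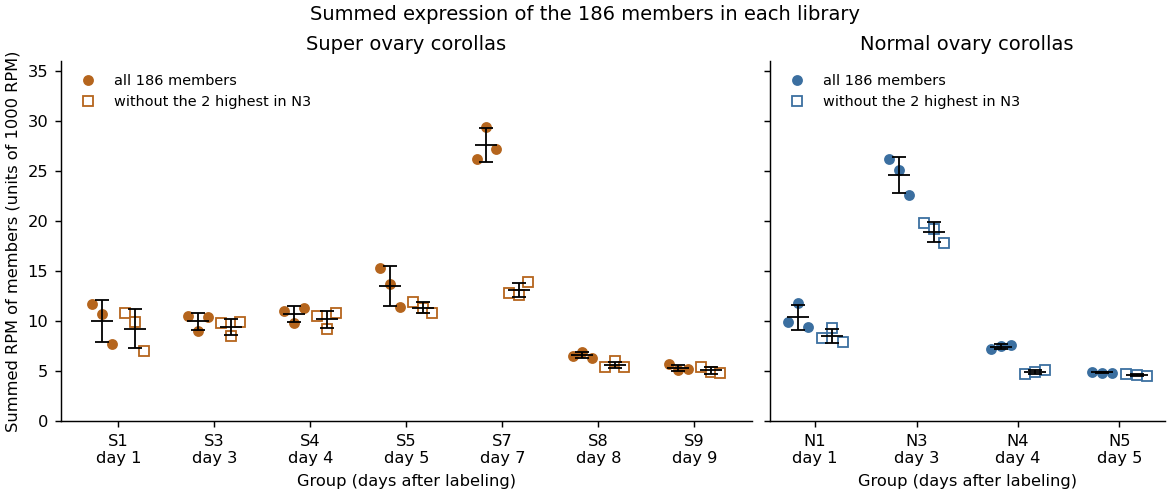
Summed RPM of the members in each library (axis in units of 1000 RPM), for super (left) and normal corollas (right) by day after labeling; bars are mean and SD of 3 libraries. Filled points hold all 186 members and open squares leave out the 2 with the highest N3 means, without which the S7 sum is 13092 RPM in place of 27620.

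Csa2G023940 and Csa2G024440 were singled out after their values were seen. In the super course Csa2G023940 stood at 410, 423 and 359 RPM in the S1 libraries, 347, 269 and 267 in S3, and 268, 330 and 276 in S4. It then stood at 1764, 1353 and 284 RPM in S5, 5009, 6920 and 5487 in S7, 495, 443 and 386 in S8, and 106, 103 and 119 in S9. The S7 libraries lay above all others, and S5 replicate 3 stayed at the level of S4 while the other S5 libraries had left it. By limma the log2 difference was 2.71 in S7 against S5 (SE 0.35, adjusted p 2.8e-07) and -3.71 in S8 against S7 (SE 0.35, adjusted p 7.2e-10). The rise was 1.90 without S5 replicate 3.

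Csa2G024440 followed the same course. It stood at 456, 421 and 319 RPM in S1, 312, 228 and 219 in S3, and 246, 281 and 231 in S4. It had 1659, 1108 and 272 RPM in S5, 8364, 9950 and 7851 in S7, 605, 540 and 522 in S8, and 142, 140 and 195 in S9. Here too S5 replicate 3 was the low one of its group. The log2 difference by limma was 3.45 in S7 against S5 (SE 0.36, adjusted p 7e-09), 2.68 without S5 replicate 3, and -3.97 in S8 against S7 (SE 0.36, adjusted p 2.9e-10). The S7 mean of 8722 ± 1094 RPM was 3.44 times the N3 mean, the normal means being 958 ± 361 RPM in N1, 2534 ± 346 in N3, 1086 ± 51.3 in N4 and 177 ± 27.0 in N5 (SD, n = 3). For Csa2G023940 the S7 mean of 5805 ± 994 RPM was 1.83 times the N3 mean of 3174 ± 473 RPM.

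Whether members rose from the green bud to the green yellow bud of super ovaries was tested with the mean of S3, S4 and S5 against S1. Calls needed an adjusted p under 0.05 and at least a 2-fold difference of log2(RPM + 1), a scale on which changes of weakly expressed genes come out too small. Of the 186 members 35 rose (18.8%), against 3.90% of all genes tested, and 26 fell (14.0%), against 4.58%. Every member had 5 RPM or more in N3, while the genes tested needed only 1 RPM in any group. Weak genes are harder to call on this scale, so these shares, here and below, are not of sets matched in level. The remaining 125 were not called, and the median member differed by 0.12 on the log2 scale, where the median of all genes tested was -0.034. Among those that rose, 7 did so by 4-fold or more (3.76%), against 0.788% of the genes tested. The number of falling members rested on the S1 libraries, being 12 without S1 replicate 1, 17 without S1 replicate 2 and 40 without S1 replicate 3, while 33 to 37 rose. With a pseudocount of 5, 20 rose and 15 fell. Counts with a library left out or a pseudocount of 5 are given, here and below, without the share of all genes tested. They do not show whether members moved more than genes at large.

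The largest rise in this comparison, among members with 10 RPM or more and no overlap of libraries, was that of Csa3G026160. It stood at 8.67, 11.6 and 3.95 RPM in S1, 149, 193 and 147 in S3, 418, 336 and 325 in S4, and 481, 410 and 461 in S5. Later it came to 187, 146 and 239 RPM in S7, 14.9, 24.3 and 14.8 in S8, and 9.54, 16.0 and 23.1 in S9. Every library from S3 to S7 lay far above those of S1, S8 and S9. The green yellow mean was 40.2 times the S1 mean, a log2 difference of 5.14 by limma (SE 0.23, adjusted p 5.8e-16). The S5 mean of 450 ± 36.4 RPM stood beside normal means of 14.8 ± 3.28 RPM in N1, 199 ± 11.2 in N3, 35.5 ± 5.99 in N4 and 10.9 ± 2.63 in N5 (SD, n = 3).

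Csa7G043670 came next. It had 16.9, 17 and 14.6 RPM in S1, 71.5, 75.6 and 77.1 in S3, 124, 113 and 99.5 in S4, and 83.6, 97.1 and 100 in S5. It declined in steps, with 34.9, 45.5 and 56.8 RPM in S7, 25.6, 18.9 and 27.2 in S8, and 7.07, 6.12 and 5.20 in S9. The libraries of S3 to S5 did not overlap those of any other super group. The difference from S1 was 2.44 on the log2 scale by limma (SE 0.11, adjusted p 1.3e-15). Normal corollas held 22.5 ± 2.54 RPM in N1, 80.9 ± 7.56 in N3, 21.7 ± 1.61 in N4 and 7.55 ± 0.57 in N5 (SD, n = 3).

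**Figure D4:**
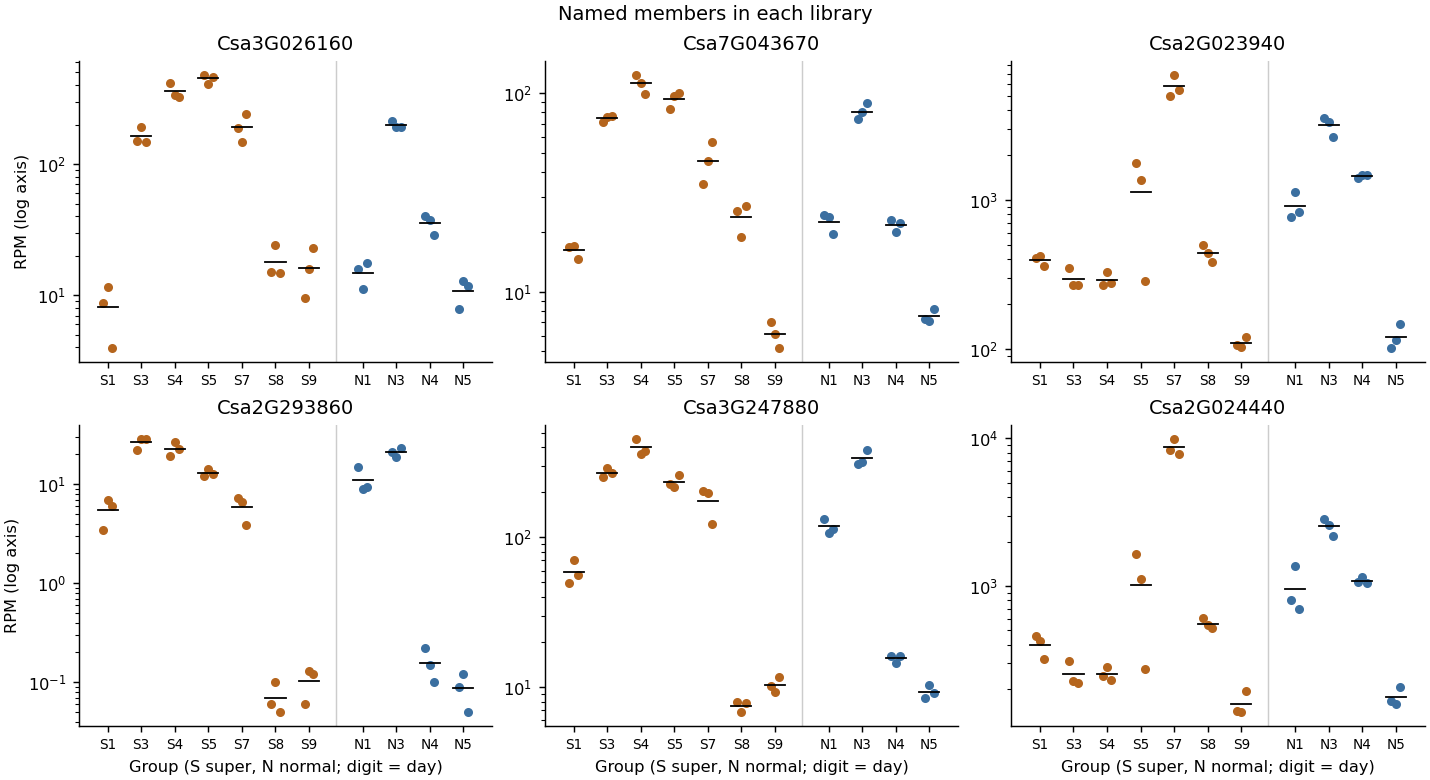
RPM on a log axis of 6 named members in each library, super groups (brown) left and normal groups (blue) right of the line, with the group mean as a bar. The left and middle columns hold members that were high from S3 to S5, and the right column holds the 2 members whose maximum lay in S7, at means of 5805 and 8722 RPM.

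The passage from the green yellow to the yellow bud of super ovaries was tested by setting S7 and S8, averaged, against the average of S3, S4 and S5. There 26 members rose (14.0%), against 8.16% of all genes tested, and 50 fell (26.9%), against 21.5%. The share that fell was thus near that of genes at large. After rescaling, 38 members rose and 34 fell, against 13.1% and 13.4% of the genes tested, so the direction of the balance depended on the scaling. With a pseudocount of 5, 14 rose and 27 fell. The comparison also joins a pair of unlike groups, S7 with many maxima and S8 with few.

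The largest falls there were those of Csa2G293860 and Csa3G247880. Csa2G293860 stood at 3.48, 6.88 and 6 RPM in S1, 22.2, 28.7 and 28.8 in S3, 19.3, 26.4 and 22.5 in S4, and 12.1, 14.1 and 12.8 in S5. It had 7.29, 6.60 and 3.91 RPM in S7, 0.06, 0.10 and 0.05 in S8, and 0.06, 0.13 and 0.12 in S9, where the lowest value a library can hold is 0.04 to 0.06 RPM. Its level in S8, S9 and N5 was therefore at the limit of detection, 3 reads corresponding to 0.162 to 0.237 RPM in these libraries. The log2 difference of yellow against green yellow buds was -2.95 by limma (SE 0.12, adjusted p 2.1e-18). In normal corollas it held 21.1 ± 2.36 RPM in N3 against 11.0 ± 3.33 in N1 (SD, n = 3), and 0.22, 0.15 and 0.10 RPM in the N4 libraries. Those N4 values were also near or below the level of 3 reads, which was 0.216, 0.202 and 0.203 RPM there.

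Csa3G247880 was an abundant gene of the same shape. It had 49.6, 70.8 and 55.7 RPM in S1, 253, 289 and 269 in S3, 455, 362 and 375 in S4, and 226, 215 and 261 in S5. It still stood at 204, 198 and 122 RPM in S7 and came to 7.93, 6.82 and 7.81 in S8, with 10.1, 9.33 and 11.6 in S9. The drop lay between S7 and S8, where no library overlapped, and S7 replicate 3 was the lowest of its group. The log2 difference of yellow against green yellow buds was -2.94 by limma (SE 0.095, adjusted p 1.4e-20), and that of S8 against S7 was -4.33 (SE 0.15, adjusted p 1.2e-18). Its normal means were 118 ± 13.5 RPM in N1, 336 ± 38.3 in N3, 15.6 ± 0.92 in N4 and 9.33 ± 0.91 in N5 (SD, n = 3).

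At flowering, S9 against the mean of S7 and S8, 89 members fell (47.8%), against 7.77% of all genes tested, and 10 rose (5.38%), against 8.85%. Of the falls 37 were of 4-fold or more (19.9% of the members), against 1.82% of the genes tested. The median member differed by -0.95 on the log2 scale where the median of all genes tested was 0.0063. After rescaling 89 fell and 11 rose, against 7.55% and 9.57% of the genes tested. With a pseudocount of 5, 58 fell and 7 rose, and without S7 replicate 3 the number of rises was 6. Of all super groups S9 held the lowest mean of most members, 99 of 186 (53.2%), against 25.3% of the genes tested.

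The steps between consecutive super groups show when the changes came. From S1 to S3, 25 members rose (13.4%), against 2.11% of all genes tested, and 13 fell (6.99%), against 2.51%. The number that fell was 4 without S1 replicate 1 or without S3 replicate 2, and 30 without S1 replicate 3. In S4 against S3, 5 members rose (2.69%), against 0.825%, and 4 fell (2.15%), against 0.973%. The 9 calls of that step were 5 without S3 replicate 1, 5 without S3 replicate 3 and 4 without S4 replicate 2.

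In S5 against S4, 18 members rose (9.68%), against 0.936% of all genes tested, and 3 fell (1.61%), against 0.270%. Without S5 replicate 3, 27 rose and 4 fell, and without S5 replicate 2, 14 rose and 2 fell. The shares of all genes tested in those fits are not given here. In S7 against S5, 25 rose (13.4%), against 3.25%, and 17 fell (9.14%), against 8.64%. The rises in S7 included 12 of 4-fold or more (6.45%), against 0.503% of the genes tested. Without S7 replicate 3, 31 rose and 27 fell in that step, and after rescaling 34 rose and 11 fell, against 5.04% and 4.60% of the genes tested. The share of falls was thus near that of genes at large as deposited, while that of rises was above it as deposited and after rescaling.

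The step from day 7 to day 8 was the one with most calls. In S8 against S7, 81 members fell (43.5%), against 9.13% of all genes tested, and 4 rose (2.15%), against 5.58%. Of the falls 39 were of 4-fold or more (21% of the members), against 1.01% of the genes tested. All S8 libraries lay below all S7 libraries in 117 members (62.9%), but also in 45.3% of the genes tested. The median member differed by -0.85 on the log2 scale, where the median of all genes tested was -0.23. After rescaling, 72 fell and 8 rose, against 4.77% and 8.45% of the genes tested. Without S7 replicate 3, 82 fell and 1 rose. In the last step, S9 against S8, 49 members fell (26.3%), against 6.30%, and 8 rose (4.30%), against 9.28%. With a pseudocount of 5 these were 28 and 6.

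**Figure D5:**
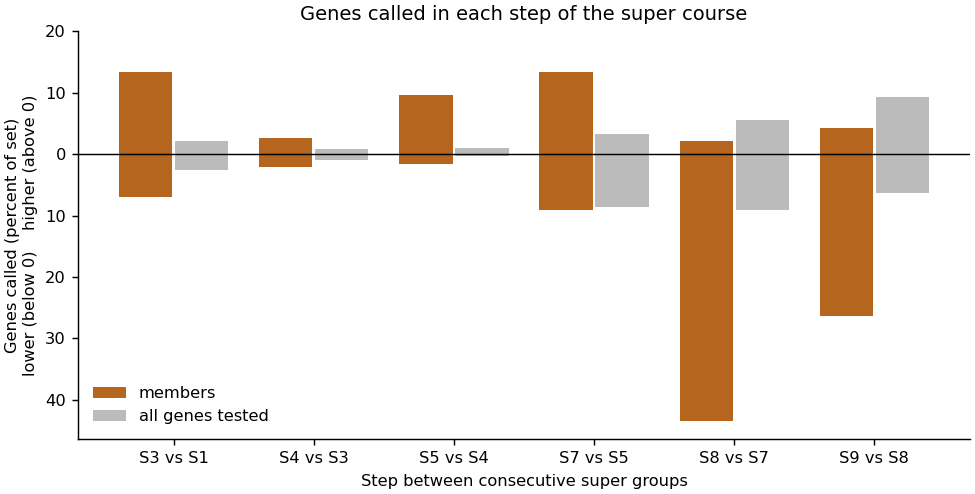
Percent of the 186 members (left bars) and of the 18905 genes tested (right bars) called higher (above 0) or lower (below 0) in each step of the super course by limma. The longest bar is that of the members lower in S8 than in S7, 43.5% against 9.13% of the genes tested.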

How the data were processed

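The authors deposited one table of RPM values (reads scaled to the reads counted in genes) for 33 libraries. The submitters' processing notes name TopHat and HTSeq, while versions, build and annotation were not given in the sources used here. Column sums ran from 999976 to 1000019 RPM, and zeros did not occur. Library totals were recovered from the value steps (98.8% to 100% of values within 0.25 of a whole read). A value at the lowest step was taken as no read plus 1 added, an assumption on which the read limit and edgeR rest. Such limits cover counting error alone. Replicate pairs differed by more than sampling noise (chi-square per degree of freedom 5.2 or more). It was highest in the pairs of S7 replicate 3, at 74.1 and 55.7, and at most 20.3 in all other pairs. Of the 23248 identifiers 0 matched a table of 23999 RefSeq genes.

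limma 3.58.1 in R 4.3.3 was run on log2(RPM + 1) with all 33 libraries in a single fit of 11 group means and a variance trend. The 18905 genes with a group mean of 1 RPM or more were tested, two-sided, with Benjamini-Hochberg adjustment in each of 9 comparisons; all 186 members passed. The method was also run on simulated data with the same spread setting for every gene and no replicate that stood apart. That run does not show how the method performs at the spread of these libraries. Labels call the replicates biological but do not say whether pools came from separate plants, so p-values measure the spread between pools. The named members were the 2 largest called rises in the green yellow bud and the 2 largest called falls in the yellow bud, with 10 RPM or more in the higher side and no overlap of libraries. With no gene names, lists by function could not be formed. The members, comparisons and alternatives were chosen with earlier results of these data known. Alternatives were pseudocounts of 0.1 and 5, no filter, a filter at 5 RPM, rescaling, a replicate block, super libraries only, and each replicate left out. Added after seeing the data were edgeR 4.0.16 (quasi-likelihood) on recovered reads of 30 libraries, leaving out 3 whose lowest values did not give whole reads (N5, S1 and S4, replicate 2 of each), and a fit without S7 replicate 3 and S5 replicate 3.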

Additional observations from a re-analysis of the deposited data

How the results depend on the processing

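Counts of members called stayed within 1.5 times of the values given, except as follows. These are counts of members alone, without the share of all genes tested in the same setting. With a pseudocount of 5 the counts were 35 in place of 61 for green yellow against green bud, 41 in place of 76 for yellow against green yellow bud, 65 in place of 99 for flowering against yellow bud, 21 in place of 38 for S3 against S1, 4 in place of 9 for S4 against S3, 12 in place of 21 for S5 against S4 and 34 in place of 57 for S9 against S8. With the super libraries only, S4 against S3 gave 5. After rescaling, 25 in place of 39 members peaked in S1 and 42 in place of 21 in S8 or S9. Leaving out 1 library at a time gave 49 to 73 members for green yellow against green bud, 69 to 83 for yellow against green yellow, 92 to 103 for flowering against yellow, 30 to 54 for S3 against S1, 4 to 8 for S4 against S3, 16 to 31 for S5 against S4, 34 to 58 for S7 against S5, 83 to 95 for S8 against S7 and 53 to 59 for S9 against S8. It gave 171 to 200 genes meeting the rule, 48 to 53 members with a peak in S7, 75 to 80 in S3 to S5, 29 to 48 in S1 and 13 to 26 in S8 or S9. By edgeR the counts were 69, 82, 109, 50, 6, 22, 52, 86 and 79 in the same order of comparisons, within 1.5 times of the main count in each. The causes were not tested.

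The median log2 difference of all genes tested was 0.019 after rescaling and -0.29 as deposited for yellow against green yellow bud, 0.015 and -0.19 for S7 against S5, -0.011 and -0.23 for S8 against S7, and 0.043 and 0.11 for S9 against S8. No named member lost its call or changed sign in any of the 150 alternative values computed for the named members. They had been picked for large called differences or for high levels, so this does not speak for the other members. Libraries with the same replicate number deviated together no more than others (correlations of -0.288 to 0.372 over 165 pairs, mean 0.014), so the numbers were not taken as pairs. With the replicate number as a block, S5 against S4 gave 20 members in place of 21 and the other comparisons 61, 76, 99, 38, 9, 42, 85 and 57, as without it.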
